A study of Homo sapiens with 4 samples.

Results

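Transfer RNA genes other than the nuclear glycine and glutamate genes were described in A375 human melanoma cells, an established BRAF-mutated cell line. The entries were selected by a rule on the deposited gene counts. A row entered when its biotype was tRNA, its symbol did not start with TRG- or TRE- (the nuclear glycine and glutamate genes), and at least 1 of the 4 libraries held 10 counts or more. Of 436 tRNA rows in a table of 46416 rows, 144 entered. Rows with the same counts in all 4 libraries were taken once, which left 85 distinct entries: 21 mitochondrial genes and 64 nuclear entries that stand for 123 rows. A further 246 rows of these amino acids stayed below the threshold, 126 of them at 0 in all 4 libraries. The rule leaves out glycine and glutamate by the spelling of nuclear symbols, so the mitochondrial glycine gene TRNG and the mitochondrial glutamate gene TRNE are among the 85 entries.

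The 4 groups held 1 library each, and all carried the BRAF mutation of the line. The first was the resistant line A375-R given 10 nM encorafenib for 48 h, and the second the resistant line without treatment. The third was the sensitive line A375-S given 10 nM encorafenib for 48 h, and the fourth the sensitive line without treatment. Encorafenib inhibits mutant BRAF. The series asked how resistance to it relates to transcription. The sources used here do not say how the resistant line was derived or whether it is 1 clone. With 1 library per group no difference has a replicate check, no test across replicates exists and none is given a p-value. Each ratio therefore compares 2 libraries, not 2 conditions, and each interval covers the error of counting alone: reads copied by PCR and carrying no molecular identifier are not separate molecules.

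A tRNA carries 1 amino acid to the ribosome and reads the codon through its anticodon. Nuclear tRNA genes are transcribed by RNA polymerase III and many are present in identical or near-identical copies, so a read often fits several of them. Human mitochondrial DNA carries its own set of tRNA genes, which are transcribed from both DNA strands as long precursors and cut out between the neighbouring rRNA and protein-coding genes. By convention a mitochondrial gene is assigned to the heavy or the light strand. The counts do not tell full-length tRNA from tRNA fragments, and in a bulk sample fewer cells of a type cannot be told apart from less RNA per cell.

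The mitochondrial set was nearly complete. Of its 22 genes, TRNS1, a light-strand serine gene, was at 0 in all 4 libraries and the other 21 passed the threshold, 7 of them on the light strand and 14 on the heavy strand. The sequences below are those of the genes whose differences between libraries the results turn on, with the anticodon in capitals. They are taken by gene name from the GENCODE 29 annotation of GRCh38, which is not the build of the deposited counts, and are written 5′ to 3′ in DNA letters along the strand of the gene. TRNE lies at chrM:14674-14742 on the light strand, between the protein-coding genes for ND6 and cytochrome b. TRNP and TRNT are neighbours on opposite strands, TRNP at chrM:15956-16023 on the light strand and TRNT at chrM:15888-15953 on the heavy strand. TRNA (chrM:5587-5655) and TRNY (chrM:5826-5891) belong to a run of 4 light-strand tRNA genes, and TRNQ (chrM:4329-4400) overlaps the heavy-strand gene TRNI. TRNV (chrM:1602-1670, heavy strand) sits between the 2 mitochondrial rRNA genes, and TRNG (chrM:9991-10058, heavy strand) between the genes for CO3 and ND3.
TRNE: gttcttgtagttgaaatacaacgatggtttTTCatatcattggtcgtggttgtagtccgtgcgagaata
TRNP: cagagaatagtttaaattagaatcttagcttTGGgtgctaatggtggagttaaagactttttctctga
TRNA: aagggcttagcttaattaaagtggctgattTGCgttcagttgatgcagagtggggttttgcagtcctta
TRNY: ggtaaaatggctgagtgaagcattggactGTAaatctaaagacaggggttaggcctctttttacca
TRNQ: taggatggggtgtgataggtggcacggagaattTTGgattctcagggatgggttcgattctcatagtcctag
TRNV: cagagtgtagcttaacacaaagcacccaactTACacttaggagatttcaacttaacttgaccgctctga
TRNT: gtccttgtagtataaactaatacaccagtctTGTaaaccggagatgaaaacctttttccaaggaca
TRNG: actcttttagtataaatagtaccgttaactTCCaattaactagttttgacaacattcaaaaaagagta
Light-strand members ran from 33.8% to 48.6% GC with a median of 42.4%, against 23.1% to 45.8% with a median of 35.8% for heavy-strand members.

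The gene tables held 20507667 to 33664470 counts per library, of which 88.7% to 93.8% were rRNA. Taken once per distinct entry, the tRNA entries had 45273 counts in treated resistant cells, 21134 in untreated resistant cells, 4289 in treated sensitive cells and 5202 in untreated sensitive cells. A count of 0 allows up to 3 counts, which is 0.0891 to 0.146 CPM, that is, counts per 1000000 gene-table counts. In these libraries 2, 14, 13 and 12 of the 85 entries were at 0 in the same order, all of them nuclear. The melanocyte transcription factors MITF and SOX10 were counted in every library, at 19 to 59 and 73 to 157 counts. Of the other melanocyte markers the pigment genes MLANA and TYR were at 0 throughout, and 6 of 8 markers had a count, with 163 to 513 counts summed per library. Markers of fibroblasts summed to 4 to 7 counts, of immune cells to 7 to 38 counts, and of epithelial cells to at most 1 count.

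The threshold itself sets some of the differences. Of the 85 entries 25 reached 10 counts only in treated resistant cells, 1 only in untreated resistant cells and 1 only in untreated sensitive cells, so those entries had to differ between libraries, and counts over the entries are descriptions. Just inside the threshold stood the nuclear alanine entry TRA-AGC2-1 with 10 counts in treated resistant, 2 in untreated resistant, 1 in treated sensitive and 0 in untreated sensitive cells. Just outside it stood the lysine gene TRK-CTT1-1 with 9, 3, 3 and 5 counts, the leucine gene TRL-AAG3-1 with 9, 2, 3 and 5 counts, and the methionine gene TRX-CAT1-1 with 9, 1, 2 and 0 counts in the same libraries.

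Most of these tRNA had far more counts, relative to the library total, in the resistant than in the sensitive libraries. The entries summed to 2208 CPM (95% interval 2187 to 2228) in treated resistant cells and 918 (905 to 930) in untreated resistant cells, against 168 (163 to 173) in treated sensitive cells and 155 (150 to 159) in untreated sensitive cells. The resistant library was thus 13.1-fold (12.7 to 13.6) higher under encorafenib and 5.94-fold (5.76 to 6.12) higher without it. With TMM factors, which align the bulk of the genes between libraries, the folds were 7.50 and 5.54, and 7.15 and 4.87 with rRNA left out of the total. Other classes of short RNA moved to different extents. The deposited miRNA counts per gene-table count were higher in the resistant library by 16.7-fold under encorafenib and 4.32-fold without it. Y RNA was 2.80-fold higher and 0.859-fold as high in these pairs, small nucleolar RNA 1.87-fold and 1.37-fold higher, and spliceosomal snRNA 0.954-fold and 0.830-fold as high. Whether the yield of short RNA in a library sets the tRNA difference was not tested.

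Ratios of single entries were computed on counts scaled with TMM factors and are given in log2 with a 95% counting interval. An entry counts as beyond 2-fold when the bound nearest 0 is at least 1. Between the lines without drug 42 of the 85 entries were higher and 2 lower in resistant cells beyond 2-fold, against 2.46% higher and 1.12% lower among 8786 features of the whole table. Under encorafenib 59 were higher and 1 was lower, against 2.15% and 1.21% of all features. Of the 85 entries 25 had passed the threshold through treated resistant cells alone. The threshold therefore sets part of this count and of the median ratio under encorafenib. In both pairs 38 entries were higher, which is 90.5% of the 42 and 64.4% of the 59, against 1.12% of all features, and none was lower in both, against 0.159%. In CPM both resistant libraries exceeded both sensitive libraries for 63 of the 85 entries, against 36.0% of all features. The reverse held for none of the 85, against 444 of 8786 features. The threshold sets part of these counts as well.

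The median log2 ratio of the entries was 2.05 without drug and 2.96 under encorafenib, against -0.02 and 0.04 over all features. Low counts affect such medians. With entries at 3 counts or fewer in both libraries left out and a count of 0 taken as 3, the medians were 2.30 over 72 entries and 2.76 over 84 entries. Scaling by total gene-table counts instead of TMM shifts every ratio by 0.10 without drug and 0.81 under encorafenib. For the drug pairs the shift is -0.58 in sensitive cells and 0.13 in resistant cells. Folds given per gene-table count carry this shift.

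**Figure D1:**
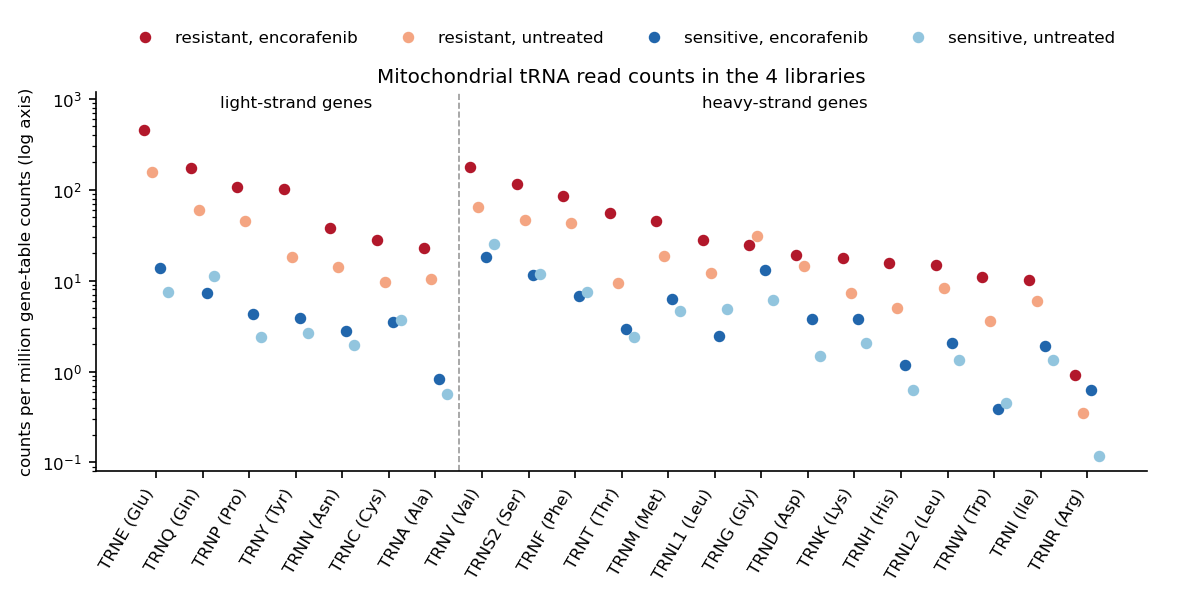
CPM, counts per 1000000 gene-table counts (log axis), of the 21 mitochondrial tRNA genes above the threshold, 1 point per library, with light-strand genes left of the dashed line and heavy-strand genes right of it. Both resistant libraries lie above both sensitive ones for 20 of the 21 genes, and TRNE reaches 455 in treated resistant cells against 13.8 in treated sensitive cells.

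With identical rows taken once, mitochondrial tRNA made up 70.1% of the entries' counts in treated resistant cells, 63.6% in untreated resistant cells, 66.4% in treated sensitive cells and 64.7% in untreated sensitive cells. With every row counted it was a minority, at 41.0%, 34.4%, 37.5% and 39.0% in that order. The share thus moved little between the lines, while mitochondrial tRNA per gene-table count was 13.9-fold higher in resistant cells under encorafenib and 5.83-fold higher without it. Of the 21 genes 19 were higher in resistant cells beyond 2-fold under encorafenib and 18 without it, against 2.15% and 2.46% of all features. In both pairs 17 were higher, against 1.12% of all features. The exceptions were TRNG and TRNR under encorafenib, and TRNL1, TRNC and TRNR without it. TRNR, the arginine tRNA, had 19 counts in treated resistant, 8 in untreated resistant, 16 in treated sensitive and 4 in untreated sensitive cells, the fewest of the set.

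The difference was unequal between the strands of mitochondrial DNA. Light-strand genes summed to 925 CPM in treated resistant and 312 in untreated resistant cells, against 36.5 in treated sensitive and 30.2 in untreated sensitive cells. Heavy-strand genes summed to 622 and 271 CPM in the treated and untreated resistant libraries, against 75.1 and 69.9 in the treated and untreated sensitive libraries. The resistant library was higher by 25.4-fold (23.7 to 27.1) for the light strand and 8.29-fold (7.90 to 8.70) for the heavy strand under encorafenib. Without drug these folds were 10.4 (9.70 to 11.1) and 3.88 (3.70 to 4.07). On the TMM scale of the single genes the log2 ratios were 3.85 for the light and 2.24 for the heavy strand under encorafenib, and 3.27 and 1.85 without it.

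Light-strand genes accordingly held 59.8% (59.2 to 60.3) of mitochondrial tRNA counts in treated resistant and 53.5% (52.7 to 54.4) in untreated resistant cells, against 32.7% (31.0 to 34.4) in treated sensitive and 30.1% (28.6 to 31.7) in untreated sensitive cells. Light-strand and heavy-strand genes also differ in GC content, as given above, and the part of library yield or GC content in the shares was not tested. Much of it came from TRNE. Without TRNE, a comparison added after the data were seen, the light-strand share was 43.0% and 36.7% in the treated and untreated resistant libraries, against 23.2% and 24.5% in the treated and untreated sensitive libraries. The order of the 2 lines was kept. The mitochondrial rRNA genes on the heavy strand were less different between the lines, at 1.96-fold (RNR1) and 2.19-fold (RNR2) higher per gene-table count in resistant cells under encorafenib, and 1.58-fold and 1.80-fold without it. Mitochondrial protein-coding genes were not analysed here.

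**Figure D2:**
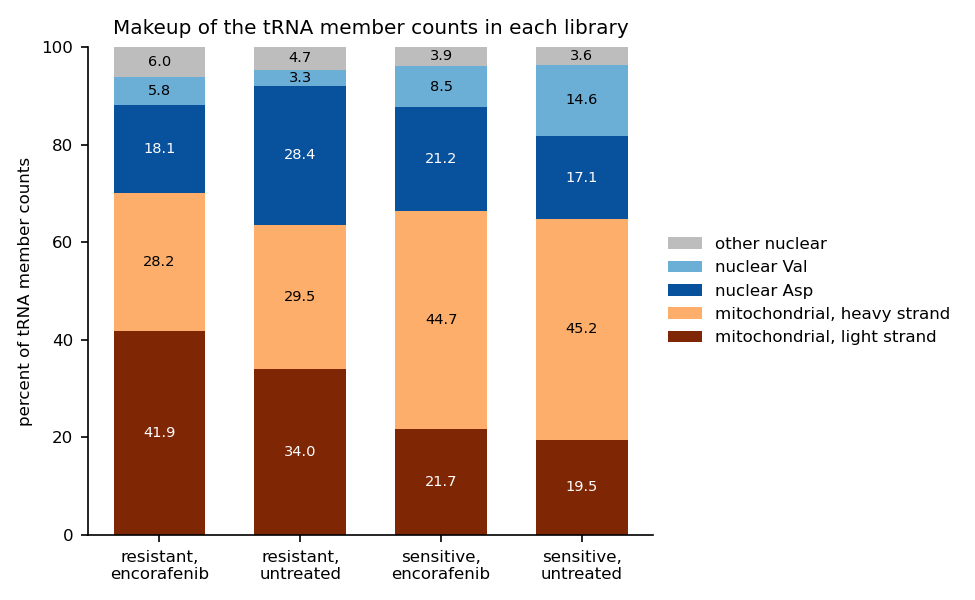
Stacked bars give the percent of tRNA counts in each of the 4 libraries that came from light-strand and heavy-strand mitochondrial genes, nuclear aspartate, nuclear valine and other nuclear tRNA, with identical rows counted once. The light-strand part is 41.9% and 34.0% in the treated and untreated resistant libraries, against 21.7% and 19.5% in the treated and untreated sensitive libraries.

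TRNE, the mitochondrial glutamate tRNA, had the most counts of all entries in treated resistant cells. It had 9326 counts there and 3580 in untreated resistant cells, against 353 in treated sensitive and 252 in untreated sensitive cells. The log2 ratio between the lines was 4.23 (4.08 to 4.39) under encorafenib and 4.27 (4.09 to 4.46) without it. The 2 ratios lie within each other's intervals, so the difference between the lines was about as large in either state. Per length, the level of TRNE was 6591 CPM per kilobase in treated resistant cells, where the aspartate entry TRD-GTC2-6 stood at 3457. TRNE took 29.4% of mitochondrial tRNA counts in treated resistant and 26.6% in untreated resistant cells, against 12.4% in treated sensitive and 7.48% in untreated sensitive cells.

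TRNP, the proline tRNA, had 2194 counts in treated resistant and 1054 in untreated resistant cells, against 109 in treated sensitive and 80 in untreated sensitive cells. Its ratio between the lines was 3.83 (3.56 to 4.13) under encorafenib and 4.16 (3.84 to 4.51) without it. TRNA, the alanine tRNA, had 467 and 239 counts in the treated and untreated resistant libraries, against 21 and 19 in the treated and untreated sensitive libraries. Its ratios were 3.95 (3.35 to 4.69) under encorafenib and 4.07 (3.42 to 4.86) without it. Together with TRNE these genes formed the group with ratios near 4 in both states.

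The neighbours of TRNA on the same strand did not share its ratio without drug. TRNC, the cysteine tRNA, had 574, 220, 89 and 125 counts in treated resistant, untreated resistant, treated sensitive and untreated sensitive cells, with a ratio of 1.26 (0.94 to 1.59) without drug. TRNN, the asparagine tRNA between TRNA and TRNC, had 779, 323, 71 and 66 counts in that order and a ratio of 2.73 (2.35 to 3.14). The counting intervals of TRNA, TRNN and TRNC do not overlap, although the genes lie side by side. TRNC and TRNY share 1 base position in the annotation. The sources used here do not say whether the counting used the strand of a read, so reads of overlapping mitochondrial genes, such as TRNQ and TRNI, cannot be told apart with certainty. Copies of mitochondrial sequence in the nuclear genome add a further uncertainty.

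TRNQ, the glutamine tRNA, and TRNY, the tyrosine tRNA, stood further apart between the lines under drug than without it. TRNQ had 3517 counts in treated resistant and 1361 in untreated resistant cells, against 188 in treated sensitive and 383 in untreated sensitive cells. Its ratio between the lines was 3.73 (3.52 to 3.95) under encorafenib and 2.27 (2.11 to 2.44) without it. TRNY had 2104 and 417 counts in the treated and untreated resistant libraries, against 100 and 90 in the treated and untreated sensitive libraries. Its ratio was 3.89 (3.61 to 4.21) under encorafenib and 2.65 (2.33 to 3.00) without it.

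On the heavy strand, TRNV, the valine tRNA, had the highest level per length of the mitochondrial genes in both sensitive libraries. It had 3676 counts in treated resistant and 1499 in untreated resistant cells, against 466 in treated sensitive and 853 in untreated sensitive cells. Its ratio between the lines was 2.48 (2.35 to 2.63) under encorafenib and 1.26 (1.14 to 1.38) without it, among the smaller ones of the set. TRNT, the threonine tRNA next to TRNP on the other strand, had 1151, 219, 75 and 81 counts in the treated resistant, untreated resistant, treated sensitive and untreated sensitive libraries. Its ratio without drug, 1.88 (1.51 to 2.27), was well below that of TRNP.

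The heavy-strand genes TRNS2 (serine) and TRNF (phenylalanine) were also abundant. TRNS2 had 2363, 1080, 293 and 395 counts in treated resistant, untreated resistant, treated sensitive and untreated sensitive cells, with ratios between the lines of 2.52 under encorafenib and 1.90 without it. TRNF had 1746, 988, 173 and 250 counts in that order, with ratios of 2.84 and 2.43. The remaining heavy-strand genes that passed 2-fold under encorafenib (TRNM, TRNL1, TRND, TRNK, TRNH, TRNL2, TRNW and TRNI) had ratios of 1.39 to 3.93 there.

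TRNG, the mitochondrial glycine tRNA, was ordered differently from the others. It had 505 counts in treated resistant and 710 in untreated resistant cells, against 335 in treated sensitive and 204 in untreated sensitive cells, and was the only mitochondrial entry with its highest count in untreated resistant cells. Its ratio between the lines was 0.10 (-0.10 to 0.30) under encorafenib and 2.24 (2.02 to 2.48) without it. TRND, the aspartate tRNA, had 388, 335, 97 and 50 counts in treated resistant, untreated resistant, treated sensitive and untreated sensitive cells. Its ratio was likewise smaller under encorafenib, at 1.50 (1.18 to 1.84), than without it, at 3.18 (2.76 to 3.65).

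**Figure D3:**
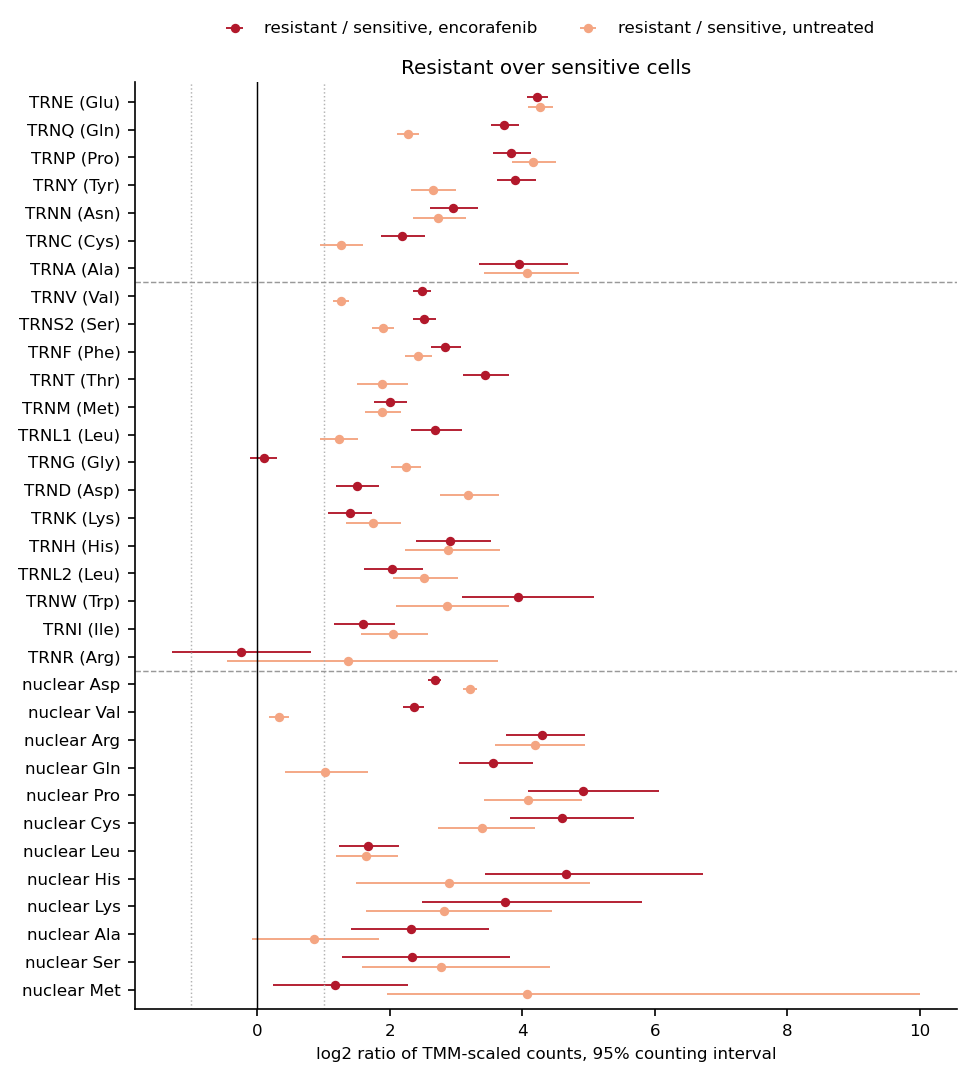
Log2 ratio of TMM-scaled counts in resistant over sensitive cells with its 95% counting interval, under encorafenib (dark) and untreated (light), for each mitochondrial tRNA gene and for nuclear tRNA summed by amino acid, with dotted lines at 2-fold. Nuclear valine stands at 2.36 under encorafenib and 0.33 untreated, and TRNG at 0.10 and 2.24. Nuclear tryptophan, at 0 in both sensitive libraries, is not drawn.

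Nuclear entries covered 13 amino acids and 27 anticodons, and 81 of their 123 rows fell into 22 sets with identical counts. The sources used here do not say how a read that matches several genes was counted. Values of single nuclear entries are therefore uncertain, and some entries may hold the same reads. The leucine entries TRL-CAG1-1 and TRL-CAG2-2 both had 0, 3 and 5 counts in untreated resistant, treated sensitive and untreated sensitive cells, with 21 and 18 in treated resistant cells. Of the 64 entries 40 were higher and 1 lower in resistant cells beyond 2-fold under encorafenib, against 2.15% and 1.21% of all features. Without it 24 were higher and 2 lower, against 2.46% and 1.12%, and 21 were higher in both pairs, against 1.12%. The 25 entries that passed the threshold through treated resistant cells alone were all nuclear. The threshold therefore sets part of the nuclear count under encorafenib. Summed counts by amino acid or anticodon depend less on the split between copies, but can count a read more than once.

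Aspartate dominated the nuclear counts. All its entries carry the anticodon GTC, and they summed to 8191 counts in treated resistant and 6008 in untreated resistant cells, against 911 in treated sensitive and 887 in untreated sensitive cells. This was 60.4% of the nuclear counts in treated resistant and 78.0% in untreated resistant cells, against 63.3% in treated sensitive and 48.3% in untreated sensitive cells. The log2 ratio between the lines was 2.67 (2.58 to 2.78) under encorafenib and 3.21 (3.10 to 3.31) without it.

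A pair of aspartate sets held most of these counts. The set named here for TRD-GTC2-6 (3 rows with identical counts) had 5105 and 4865 counts in the treated and untreated resistant libraries, against 640 and 633 in the treated and untreated sensitive libraries. The set of TRD-GTC2-1 (8 rows) had 2628 and 1030 counts in the treated and untreated resistant libraries, against 240 and 237 in the treated and untreated sensitive libraries. Their ratios between the lines were 2.50 (2.38 to 2.62) and 2.96 (2.77 to 3.16) under encorafenib, and 3.39 (3.27 to 3.51) and 2.56 (2.36 to 2.78) without it, so the order of the sets differed between the states. The gene names of both sets begin with TRD-GTC2 and differ only in the last number, so they do not mark the sets as different tRNA. The part that the assignment of shared reads has in the split between the sets was not tested.

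Valine behaved differently. Its 12 entries summed to 2622 counts in treated resistant and 701 in untreated resistant cells, against 363 in treated sensitive and 760 in untreated sensitive cells. The ratio between the lines was 2.36 (2.20 to 2.52) under encorafenib and 0.33 (0.18 to 0.48) without it. Of nuclear counts valine took 19.3% in treated resistant and 9.11% in untreated resistant cells, against 25.2% in treated sensitive and 41.4% in untreated sensitive cells, the reverse of the order seen for aspartate in untreated cells.

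The 3 valine anticodons differed. Anticodon CAC had 1363 counts in treated resistant and 288 in untreated resistant cells, against 164 in treated sensitive and 428 in untreated sensitive cells, with ratios between the lines of 2.56 (2.33 to 2.80) under encorafenib and -0.12 (-0.35 to 0.09) without it. Anticodon AAC had 462, 219, 137 and 267 counts in the same order of libraries, with ratios of 1.26 (0.98 to 1.55) and 0.16 (-0.10 to 0.42). Anticodon TAC had 797, 194, 62 and 65 counts, with ratios of 3.18 (2.82 to 3.59) and 2.02 (1.61 to 2.45). The TAC isoacceptors, tRNA for the same amino acid with another anticodon, were thus the only valine group beyond 2-fold in both pairs.

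Among entries with 1 anticodon the ratios also spread. TRV-CAC3-1 had 210 and 91 counts in treated and untreated resistant cells, against 79 and 239 in treated and untreated sensitive cells, with ratios between the lines of 0.91 (0.54 to 1.31) under encorafenib and -0.94 (-1.31 to -0.59) without it. The set of TRV-CAC1-2 (3 rows) had 484 and 141 counts in treated and untreated resistant cells, against 48 and 124 in treated and untreated sensitive cells, with ratios of 2.83 (2.41 to 3.30) and 0.63 (0.27 to 0.99). TRV-CAC4-1 had 514 counts in treated resistant cells and 0 in each other library, which is at least 122-fold higher than in treated sensitive cells and at least 176-fold higher than in untreated resistant cells, against 3 counts per library. The set of TRV-CAC1-1 (5 rows) went the opposite way, with 0 counts in treated resistant, 22 in untreated resistant, 14 in treated sensitive and 14 in untreated sensitive cells. The part that the assignment of shared reads has in such patterns was not tested. TRV-CAC4-1 supplied 514 of the 1363 CAC counts in treated resistant cells.

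Wide relative differences between the lines lay among scarcer nuclear tRNA. Arginine tRNA with anticodon CCG, nearly all from TRR-CCG2-1, summed to 589 counts in treated resistant and 231 in untreated resistant cells, against 20 in treated sensitive and 13 in untreated sensitive cells, with ratios of 4.35 (3.75 to 5.11) under encorafenib and 4.55 (3.80 to 5.53) without it. The 7 proline entries summed to 446, 229, 10 and 18 counts in treated resistant, untreated resistant, treated sensitive and untreated sensitive cells, with ratios of 4.92 (4.09 to 6.06) and 4.08 (3.42 to 4.90). The 4 cysteine entries summed to 393, 149, 11 and 19 counts, with ratios of 4.60 (3.81 to 5.68) and 3.39 (2.72 to 4.19). Under encorafenib all 3 intervals lay above that of aspartate, with 10 to 20 counts per sum in treated sensitive cells behind the estimate. Without drug the interval of cysteine overlapped that of aspartate and the other two lay above it.

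Glutamine had its wider difference between the lines under drug, as valine did, and leucine had about the same difference in both states. The histidine entries, with anticodon GTG, summed to 160 counts in treated resistant and 24 in untreated resistant cells, against 4 in each sensitive library. Glutamine summed to 505 and 57 counts in treated and untreated resistant cells, against 30 and 38 in treated and untreated sensitive cells, with ratios between the lines of 3.56 (3.05 to 4.16) under encorafenib and 1.03 (0.41 to 1.66) without it. TRQ-CTG2-1 supplied 177 of the 505 glutamine counts and had none in untreated resistant cells. The part of shared reads in this was not tested. Leucine summed to 234 and 131 counts in treated and untreated resistant cells, against 52 and 57 in treated and untreated sensitive cells, with ratios of 1.67 (1.24 to 2.14) and 1.64 (1.19 to 2.12). Lysine, alanine, serine, methionine and tryptophan had at most 84 counts in any library.

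The few entries that were lower in resistant cells were of low count. Without drug they were the glutamine gene TRQ-CTG2-1, with 177, 0, 3 and 14 counts in treated resistant, untreated resistant, treated sensitive and untreated sensitive cells, and the valine set of TRV-AAC1-4, with 0, 0, 0 and 15 counts. Under encorafenib it was the set of TRV-CAC1-1 given above. TRQ-CTG2-1 was at least 3.42-fold lower without drug against 3 counts, and had a ratio of 5.17 (3.82 to 7.68) under encorafenib.

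Encorafenib treatment went with more tRNA counts in resistant cells, and in sensitive cells the size of the difference depended on the scaling. Per gene-table count the entries were 2.41-fold (2.37 to 2.45) higher in treated than in untreated resistant cells and 1.09-fold (1.04 to 1.13) higher in treated than in untreated sensitive cells. With TMM factors these folds were 2.20 and 1.63. In sensitive cells 28 of the 85 ratios had an interval above 0 and 3 below 0, against 1277 and 1160 of 8786 features. Of the 28 ratios 17 were mitochondrial. In resistant cells 44 of the 85 entries were higher and 2 lower with encorafenib beyond 2-fold, against 2.86% and 1.56% of all features. Of these 85 entries 25 had passed the threshold through treated resistant cells alone. Over the 58 entries with 10 counts in at least 2 libraries, a filter chosen after seeing the data, 27 were higher. In sensitive cells 7 were higher and none lower, against 3.47% and 2.46%. Both drug pairs had 2 entries in common, TRNE and the cysteine gene TRC-GCA2-2, against 1.17% of all features, and no lower entry in common, against 0.831%. The miRNA counts per gene-table count were 3.19-fold higher with encorafenib in resistant cells and 0.823-fold as high in sensitive cells, and Y RNA stood at 2.69-fold and 0.824-fold. The part of short-RNA yield in the tRNA difference was not tested here either.

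The median drug ratio was 1.42 in resistant and 0.98 in sensitive cells. The value in sensitive cells is the ratio that any pair of equal counts takes on this scale, since the treated sensitive library has the lowest scaling factor, and 29 of the 85 entries had 3 counts or fewer in both sensitive libraries. Without those entries, and with a count of 0 taken as 3, the medians were 1.50 over 84 entries in resistant and 0.94 over 56 entries in sensitive cells.

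**Figure D4:**
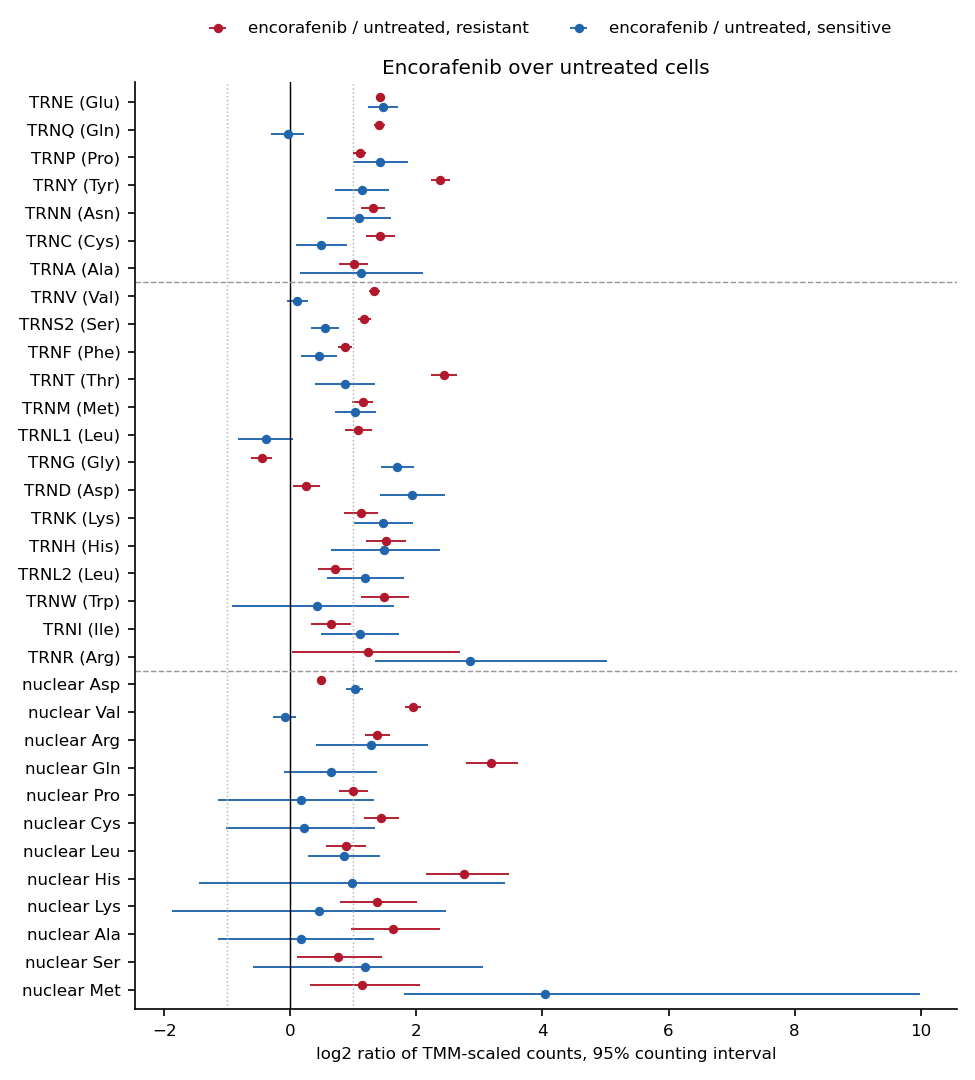
Log2 ratio of TMM-scaled counts in encorafenib-treated over untreated cells with its 95% counting interval, in resistant (red) and sensitive (blue) cells, for the same genes and amino acid sums, with dotted lines at 2-fold. TRNT stands at 2.43 in resistant cells, nuclear glutamine at 3.18 in resistant and 0.64 in sensitive cells, and TRNG at -0.45 in resistant and 1.70 in sensitive cells.

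Of the mitochondrial genes 10 were higher with encorafenib beyond 2-fold in resistant cells and 5 in sensitive cells. The shares of all features were 2.86% and 3.47%. In resistant cells the widest ratios were those of TRNT at 2.43 (2.23 to 2.65) and TRNY at 2.37 (2.22 to 2.53). In sensitive cells the 5 were TRNE at 1.47 (1.23 to 1.71), TRNG at 1.70 (1.44 to 1.95), TRND at 1.93 (1.43 to 2.46), TRNK, the lysine tRNA, at 1.47 (1.01 to 1.94), and TRNR at 2.86 (1.35 to 5.02). With total-count scaling, which lowers every ratio in sensitive cells by 0.58, 1 of the 85 entries was higher and 1 lower beyond 2-fold there.

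The difference of the 2 drug ratios, resistant minus sensitive, was taken with a counting interval, has no residual and was not tested. It had an interval above 0 for 26 entries and below 0 for 6, against 7.08% and 8.13% of all features. The threshold sets part of the 26, since 25 of the 85 entries had passed it through treated resistant cells alone. For TRNG the difference was -2.15 (-2.45 to -1.85), for TRND -1.68 (-2.21 to -1.14), and for the set of TRD-GTC2-6 -0.89 (-1.05 to -0.72). For TRNT it was 1.56 (1.06 to 2.06), for TRNQ 1.45 (1.19 to 1.72) and for TRNV 1.23 (1.04 to 1.41). For TRNE it was -0.04 (-0.28 to 0.20), so its drug ratios in the 2 lines differed by less than the counting error.

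Nuclear aspartate had a drug ratio of 0.49 (0.44 to 0.54) in resistant and 1.02 (0.88 to 1.15) in sensitive cells. Valine had 1.94 (1.82 to 2.07) in resistant and -0.08 (-0.27 to 0.10) in sensitive cells, and glutamine 3.18 (2.79 to 3.61) and 0.64 (-0.10 to 1.37). TRV-CAC4-1 contributed to the valine ratio in resistant cells and TRQ-CTG2-1 to that of glutamine. The valine CAC sum had 2.28 (2.10 to 2.47) in resistant and -0.40 (-0.67 to -0.14) in sensitive cells. Without aspartate, nuclear tRNA per gene-table count was 3.56-fold (3.37 to 3.76) higher with encorafenib in resistant cells and 0.736-fold (0.660 to 0.819) as high in sensitive cells. On the TMM scale these were log2 ratios of 1.71 (1.63 to 1.79) in resistant and 0.14 (-0.02 to 0.29) in sensitive cells, so the direction in sensitive cells turned with the scaling. The lower entries with encorafenib in resistant cells were the set of TRV-CAC1-1 and the leucine gene TRL-CAG2-1. TRL-CAG2-1 had 18, 80, 3 and 5 counts in treated resistant, untreated resistant, treated sensitive and untreated sensitive cells, with a drug ratio of -2.08 (-2.94 to -1.36) in resistant cells. TRL-CAG2-2, given above, had the same counts except in untreated resistant cells, where it had none. The sum of leucine entries with anticodon CAG had a drug ratio of -0.44 (-0.96 to 0.06) in resistant cells. The part of shared reads in this pattern was not tested.

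The nuclear glycine and glutamate tRNA, 17 distinct entries, also had more counts per gene-table count in the resistant libraries. They summed to 217 and 77.6 CPM in the treated and untreated resistant libraries, against 31.1 and 20.9 in the treated and untreated sensitive libraries. The resistant library was 6.98-fold (6.47 to 7.54) higher under encorafenib and 3.71-fold (3.40 to 4.06) higher without it. Nuclear tRNA of the other amino acids had wider folds of 11.7 (11.1 to 12.4) and 6.13 (5.83 to 6.46), and the counting intervals do not overlap. Without aspartate the fold was 12.6 (11.5 to 13.8) under encorafenib but 2.61 (2.41 to 2.82) without it, below that of glycine and glutamate.

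Few of the genes that make, charge and process tRNA passed 2-fold, and few protein-coding genes did. Many genes of these lists had low counts and wide intervals, such as POLR3G at -0.78 (-2.35 to 0.51) between the untreated lines. A 2-fold difference of such genes could be missed. The lists were chosen with earlier results of these data known. The list of cytosolic aminoacyl-tRNA synthetases, which load the amino acid, also holds AIMP1 and AIMP2, which are not synthetases. All 22 genes of this list reached 10 counts and none passed 2-fold in any of the 4 pairs. Of the 24 genes of RNA polymerase III and its factors 19 were detected and none passed. The median ratio between the lines was 0.14 for the synthetase list and 0.12 for polymerase III genes under encorafenib, and 0.04 and -0.24 without drug. Over all protein-coding genes the medians were 0.04 under encorafenib and -0.02 without drug. The medians were 0.16 and -0.12 for the processing genes described next, -0.01 and 0.01 for modification enzymes, and 0.30 and 0.39 for genes linked to tRNA cleavage, again under encorafenib and then without drug.

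Of 27 genes for tRNA end processing, splicing and export 21 were detected. RPP25, a subunit of the ribonuclease P and MRP complexes, had 21, 60, 10 and 13 counts in treated resistant, untreated resistant, treated sensitive and untreated sensitive cells, with a ratio between the untreated lines of 2.61 (1.77 to 3.64). RPP14, another such subunit, had 4, 0, 0 and 19 counts and was at least 4.65-fold lower in untreated resistant than in untreated sensitive cells, against 3 counts. It was also lower beyond 2-fold with encorafenib in sensitive cells. Of 43 modification enzymes 31 were detected. Of 10 genes linked to tRNA cleavage 7 were detected. The list is not of nucleases alone, as it includes RNH1 and YBX1. SLFN11, one of the 7 detected, had 2, 0, 1 and 13 counts and was lower in untreated resistant cells. Per pair and direction, 0.493% to 2.48% of protein-coding genes passed 2-fold.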

How the data were processed

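Read counts per gene and per mature miRNA were measured in 4 A375 libraries, 1 per group. Per the file headers, the deposited values are raw read counts with no normalization. Per the labels' protocols, RNA was extracted with RNeasy and libraries were made with SMARTer smRNA-Seq. The submitters' processing notes name hg19. The sources used here name no aligner or counter and no treatment of reads that match several genes, which affects near-identical tRNA copies most. The 8865 features with at least 10 counts in a library were kept and gave the TMM factors. Then tRNA rows with identical counts were taken once, which left 8786. Ratios used TMM factors (edgeR 4.0.16, R 4.3.3), a prior count of 0.5 and exact conditional (Clopper-Pearson) 95% intervals (scipy 1.17.1), and shares used exact Clopper-Pearson intervals. The procedure was tested on simulated data. DESeq2 1.42.0 size factors, total, protein-coding and tRNA-sum scaling, another prior count, other filters and other counting of identical rows were alternatives. Lengths, from RefSeq, matched 84 of 85 entries by gene identifier.

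The entries named were, for each amino acid, the entry with most counts, and, per pair of libraries, up to 10 entries in each direction with at least 50 counts and the largest bound nearest 0. Entries nearest the threshold and pairs with 1 anticodon were added by fixed rules; other entries were chosen after their values were seen. The members and the lists (5 of tRNA biology) were chosen with earlier results of these data known. Some genes of these lists that passed 2-fold are not reported here.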

Additional observations from a re-analysis of the deposited data

Results flagged for a closer look

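Some entries had drug ratios of opposite direction in the 2 lines, and these differences were not tested, since each group has 1 library. For TRNG the drug ratio was -0.45 in resistant and 1.70 in sensitive cells, a difference of -2.15 in log2. For TRV-CAC3-1 it was 1.24 in resistant and -0.61 in sensitive cells, a difference of 1.85. For the summed valine CAC counts it was 2.28 in resistant and -0.40 in sensitive cells, a difference of 2.68, to which TRV-CAC4-1, with counts in treated resistant cells only, contributed. The cysteine gene TRC-GCA4-1 had 39 counts in treated resistant, 0 in untreated resistant, 0 in treated sensitive and 11 in untreated sensitive cells. It was at least 13.4-fold higher with encorafenib in resistant cells, and at least 1.86-fold lower in sensitive cells, against 3 counts in the library at 0.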

How the results depend on the processing

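No paired analysis was possible because each group has 1 library and the labels give no replicate numbers, and no library could be left out. Scaling by DESeq2 size factors or by protein-coding counts kept every count of entries and every list median within the limits set for a change. Scaling by the summed tRNA counts themselves removes the difference in tRNA yield. The entries beyond 2-fold were then 5 higher and 12 lower between the untreated lines, 3 and 8 between the treated lines, 1 and 2 with drug in sensitive cells, and 15 higher with drug in resistant cells. Among 138 ratios of named entries, 24 that were beyond 2-fold with TMM factors turned negative on that scale. Between the untreated lines these were TRNQ -0.19, TRNG -0.23, TRNI -0.42, TRNK -0.73, TRNM -0.58, TRNF -0.042, TRNS2 -0.57, TRNT -0.59, TRNV -1.21 and TRV-TAC1-1 -0.87. Between the treated lines they were TRD-GTC2-6 -0.41, TRNC -0.72, TRNI -1.31, TRNL1 -0.22, TRNK -1.51, TRNM -0.90, TRNF -0.068, TRNS2 -0.39, TRNV -0.42, TRND -1.41, TRQ-TTG3-1 -0.36, TRV-AAC1-1 -0.68, TRV-CAC2-1 -0.67 and TRV-CAC1-2 -0.079. Ratios that were not beyond 2-fold with TMM factors could also turn negative and are not listed, such as TRNC at -1.21 between the untreated lines. Ratios of the named entries are therefore relative to the other genes and not to the other tRNA.

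With every row counted, 68 entries were higher between the untreated lines, 99 higher and 5 lower between the treated lines, and 79 higher and 6 lower with drug in resistant cells. With at least 50 counts summed, 1 entry was lower between the untreated lines, 4 were higher with drug in sensitive cells and 29 in resistant cells. With 10 counts in at least 2 libraries, a filter chosen after seeing the data that leaves 58 entries, 1 was lower between the untreated lines and 27 were higher with drug in resistant cells. The last 2 filters test fewer entries. With total counts, 1 entry was higher and 1 lower with drug in sensitive cells.

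The fold of summed tRNA per gene-table count was 4.87 between the untreated lines, 7.15 between the treated lines and 1.60 with drug in resistant cells when rRNA was left out of the total. With every row counted it was 6.61, 12.7, 1.16 (drug, sensitive) and 2.22 (drug, resistant). With TMM scaling, added after seeing the data, it was 5.54, 7.50, 1.63 and 2.20. With every row counted the mitochondrial share was 41.0% and 34.4% in treated and untreated resistant cells, against 37.5% and 39.0% in treated and untreated sensitive cells. Without TRNE the light-strand share was 43.0% and 36.7%, against 23.2% and 24.5%, in the same libraries. With total counts the list medians between the treated lines were 0.95 for synthetases, 0.93 for polymerase III, 0.97 for processing and 0.80 for modification genes, and with drug in sensitive cells -1.04 for synthetases and -0.99 for polymerase III. Few tRNA counts in the sensitive libraries, whose gene-table totals were the larger ones, leave wide counting intervals for scarce entries.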
